A study of Mus musculus with 8 samples.

Results

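The stretch of mouse chromosome 15 that reaches 10 Mb to either side of Hsf1, from 66477362 to 86501155 in build mm10, held 778 of the 50044 consensus regions of open chromatin found in 8 ATAC-seq libraries of natural killer (NK) cells. ATAC-seq uses a transposase that inserts sequencing adapters into accessible DNA, and a peak is a place where such insertions pile up. Peaks of all libraries that shared at least 1 bp were merged, and merged regions were kept where at least 2 libraries had a peak, a choice that used position and not genotype. Hsf1 was the gene changed in the mutant mice, so the window is the chromosome neighbourhood of the edited gene.

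The MUT group comprised 4 mice with HSF1 S303/7A, in which the serines at residues 303 and 307 are replaced by alanine, and the WT group comprised 4 mice with unchanged HSF1. The spleens came from unchallenged animals at steady state, DX5 beads enriched the NK cells, CD49b+ CD3e- cells were sorted, and 200000 cells of 1 mouse made 1 library. The labels number the MUT mice 26, 27, 28 and 29 and the WT mice 4, 5, 6 and 7, and they give no strain, litter, age or way in which the mutation was made. Any other difference between MUT and WT mice, including DNA that came with the edited gene, cannot be told apart from the 2 changed residues.

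HSF1 is the transcription factor that turns on heat shock genes when proteins misfold, and it binds DNA at repeats of GAA facing in alternate directions. The serines at these positions are phosphorylated in wild-type protein, which is known to restrain HSF1. NK cells are innate lymphocytes that kill infected and transformed cells and depend on interleukin-2 and interleukin-15, whose shared receptor beta chain gene, Il2rb, lies in this window.

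Promoters of 7 genes named in the results are shown, each as the 250 bases before a RefSeq start of the gene. They are written 5′ to 3′ on the gene's strand (GRCm38.p6, the same build as the peaks). The Maff sequence lies inside the gene, whose lower end is at 79346621. Those of Tbc1d22a and Ly6c2 overlap the gene at its outer end. Capitals mark matches on either strand to the motifs searched: facing heat shock units GAANNTTC, opposed heat shock units TTCNNGAA, ETS CCGGAAG, the CCAAT box CCAAT, the cyclic AMP element TGACGTCA, RUNX TGTGGTT, the GC box GGGCGGG and NRF1, which has no match in the sequences shown. Ndufa6 (minus strand, chr15:82354292-82354541) and Tomm22 (plus, chr15:79670618-79670867) lie under regions among the 10 with the highest peak scores. Tbc1d22a (plus, chr15:86214209-86214458) and Sun2 (minus, chr15:79742537-79742786) are the starts of genes that carry a region called in MUT only, which lies 36.1 kb from the nearer end of Tbc1d22a and 5.16 kb from that of Sun2 and not at the promoters shown. Atf4 (plus, chr15:80254934-80255183) and Maff (plus, chr15:79347270-79347519) are stress-response factors, and Ly6c2 (minus, chr15:75111972-75112221) is a start with no peak in any library.
Ndufa6: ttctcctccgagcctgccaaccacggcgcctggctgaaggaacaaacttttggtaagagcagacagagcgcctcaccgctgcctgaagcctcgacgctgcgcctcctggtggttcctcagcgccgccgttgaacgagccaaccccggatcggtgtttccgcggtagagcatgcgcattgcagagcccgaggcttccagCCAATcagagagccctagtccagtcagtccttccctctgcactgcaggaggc
Tomm22: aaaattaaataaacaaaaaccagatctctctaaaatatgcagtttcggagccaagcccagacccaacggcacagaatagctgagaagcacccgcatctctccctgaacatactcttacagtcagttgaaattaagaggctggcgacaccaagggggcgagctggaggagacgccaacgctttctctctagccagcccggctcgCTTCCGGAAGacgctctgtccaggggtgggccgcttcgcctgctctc
Tbc1d22a: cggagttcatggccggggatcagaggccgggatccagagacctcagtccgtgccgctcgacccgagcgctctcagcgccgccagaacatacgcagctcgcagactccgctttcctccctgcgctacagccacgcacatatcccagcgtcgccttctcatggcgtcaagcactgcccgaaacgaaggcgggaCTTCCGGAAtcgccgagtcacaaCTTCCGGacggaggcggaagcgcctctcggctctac
Sun2: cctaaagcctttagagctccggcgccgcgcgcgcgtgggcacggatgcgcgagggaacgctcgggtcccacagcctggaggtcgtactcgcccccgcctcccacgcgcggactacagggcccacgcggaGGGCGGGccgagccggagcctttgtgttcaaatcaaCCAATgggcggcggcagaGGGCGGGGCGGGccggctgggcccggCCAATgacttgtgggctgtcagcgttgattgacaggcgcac
Atf4: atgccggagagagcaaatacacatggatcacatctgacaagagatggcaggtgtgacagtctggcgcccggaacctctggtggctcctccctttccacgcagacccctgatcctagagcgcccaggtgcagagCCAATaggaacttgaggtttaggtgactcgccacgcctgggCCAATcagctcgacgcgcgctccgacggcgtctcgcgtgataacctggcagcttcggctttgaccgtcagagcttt
Maff: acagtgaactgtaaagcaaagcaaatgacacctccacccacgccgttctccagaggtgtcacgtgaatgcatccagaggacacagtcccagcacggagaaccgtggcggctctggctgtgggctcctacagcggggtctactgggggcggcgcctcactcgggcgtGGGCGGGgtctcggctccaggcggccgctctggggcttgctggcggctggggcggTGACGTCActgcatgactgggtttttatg
Ly6c2: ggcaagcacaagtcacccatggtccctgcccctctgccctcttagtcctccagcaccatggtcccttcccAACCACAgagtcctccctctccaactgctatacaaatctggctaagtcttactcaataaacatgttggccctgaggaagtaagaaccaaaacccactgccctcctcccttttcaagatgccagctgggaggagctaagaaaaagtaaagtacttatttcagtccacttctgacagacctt
The first 6 had a peak in 8 of 8 libraries. In Tomm22 and Tbc1d22a the heat shock match TTCCGGAA overlaps an ETS match, so some letters count for both motifs.

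RefSeq promoters (250 bases before to 50 after a start) fell into 302 entries of 239 gene symbols in the window, of which 125 overlapped a peak in 8 of 8 libraries, 163 in 0 and 14 in 1 to 7. The median GC content was 61.7% in the first set and 52.7% in the second. A GC box was present in 55.2% of the 125 open promoters, 11% of the 163 without a peak and 25.6% of all 32851 promoters of the table. The ETS motif was in 18.4%, 3.07% and 8.86% of the same 3 sets, the cyclic AMP element in 3.2%, 0% and 1.79%, and NRF1 in 4%, 0% and 0.971%. The CCAAT box was in 40.8%, 38.7% and 37.4%. Opposed heat shock units were in 5.6%, 6.75% and 8.52%, and facing units in 4.8%, 7.36% and 7.86%. Of the 7 open window promoters with opposed units, 3 had them overlapping an ETS match. RUNX was in 3.2%, 6.75% and 5.27%. Over the whole table, 11498 promoters had a peak in 8 libraries, of which 50.5% held a GC box, 20.4% ETS, 3.57% the cyclic AMP element, 2.41% NRF1, 38.1% a CCAAT box, 6.44% opposed and 5.32% facing heat shock units and 3.89% RUNX. No difference between the open promoters of the window and these was tested. These shares describe letters in short windows and say nothing of binding.

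Most regions of the window were shared by every MUT and WT library. Of the 778 regions, 571 (73.4%) had a peak in all 8 libraries, against 68.1% of the 1294 regions on the rest of chromosome 15 and 68.8% of the 49266 regions outside the window. Another 157 had a peak in 3 to 7 libraries and 50 in just 2. Just outside the rule were 86 regions called in 1 library, 60 of them in a MUT and 26 in a WT library. The same split over the genome is not given here, and MUT lists were longer on average (46352 peaks, against 44717 in WT). The split is therefore not read as a trait of the window. Their median width was 215 bp and their median score percentile 11.2, against 259.5 bp and 12.7 for the 50 regions in 2 libraries. The score is the authors' own unnamed value per peak, used here only as a rank within its list and averaged over all peaks of a region, so that a weak second peak lowers the mean. At the lower edge the rule separated a region at 66475868 to 66476811 from one at 66507647 to 66508438, both near Lrrc6. At the upper edge the last region inside was at 86485681 to 86486308 near Tbc1d22a, and the next lay beyond at 88732791 near Brd1.

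Regions were dense and unevenly spread. The window held 38.9 regions per Mb, against 18.4 per Mb over all chromosomes. It overlapped 312 of 21887 protein-coding genes, beside its 778 of 50044 regions, so it is rich in genes as well as regions. The part of gene density in the region density was not tested. Below Hsf1 lay 236 regions and above it 541. No region was found between 69079992 and 72549418, a gap of 3.47 Mb. The richest Mb lay 2 to 3 Mb above Hsf1 with 91 regions, 74 of them called in 8 libraries. It holds the regions of Sh3bp1, Lgals1 and Csnk1e described later.

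**Figure D1:**
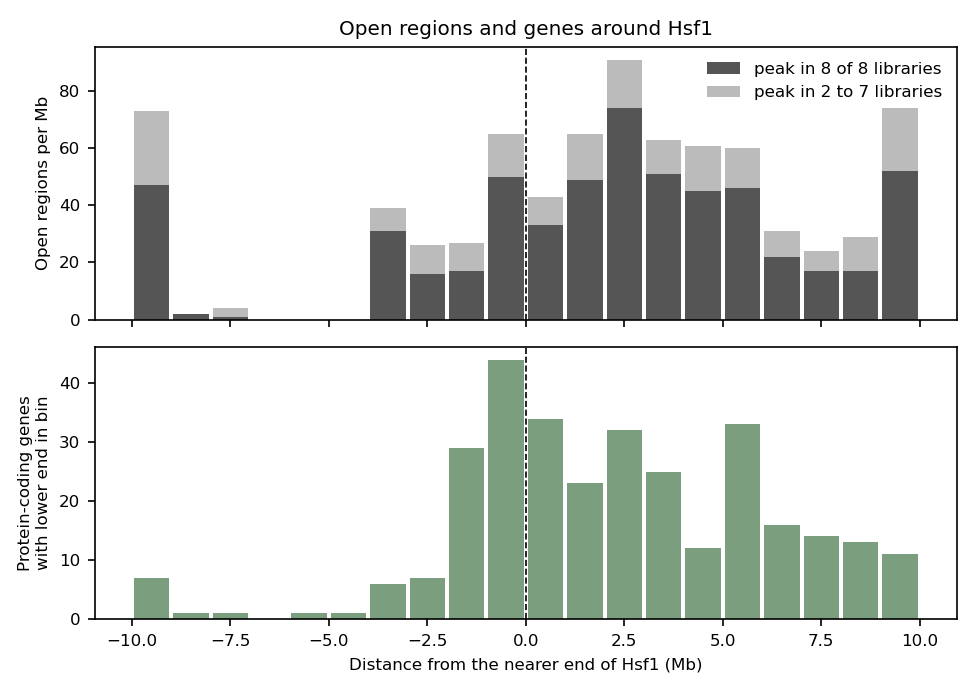
Upper panel: open regions in each Mb by distance in Mb from the nearer end of Hsf1 (dashed line), split into regions with a peak in 8 of 8 libraries (dark) and in 2 to 7 (light). Lower panel: protein-coding genes whose lower end falls in the same bin. The bin 2 to 3 Mb above Hsf1 is the tallest with 91 regions, and the bins from 7 to 4 Mb below it hold 0.

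At gene ends, meaning no more than 1 kb from where a protein-coding gene starts or stops, lay 228 of the regions (29.3%, against 26.5% of all regions). Gene bodies held 380 (48.8%, against 42.65%) and the space between genes 170 (21.85%, against 30.85%). Gene-end regions were the widest and highest ranked, with a median width of 745 bp, a median score percentile of 62.3 and 87.3% called in all 8 libraries, against 781 bp, 64.4 and 84.7% for gene ends over all regions. Gene-body regions had medians of 422.5 bp and 34.6 with 67.4% in all libraries, against 424 bp, 35.5 and 63.9% over all regions. Regions between genes had 401 bp and 36.5 with 68.2%, against 413 bp, 37.8 and 62.2%. Over the whole window the median width was 480 bp, within a range of 205 to 1968 bp, against 477 bp for all regions. Regions called in 8 libraries had a median score percentile of 55.8, and those called in 2 to 7 had medians of 12.7 to 19.9, as the plot of scores by number of libraries shows.

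**Figure D2:**
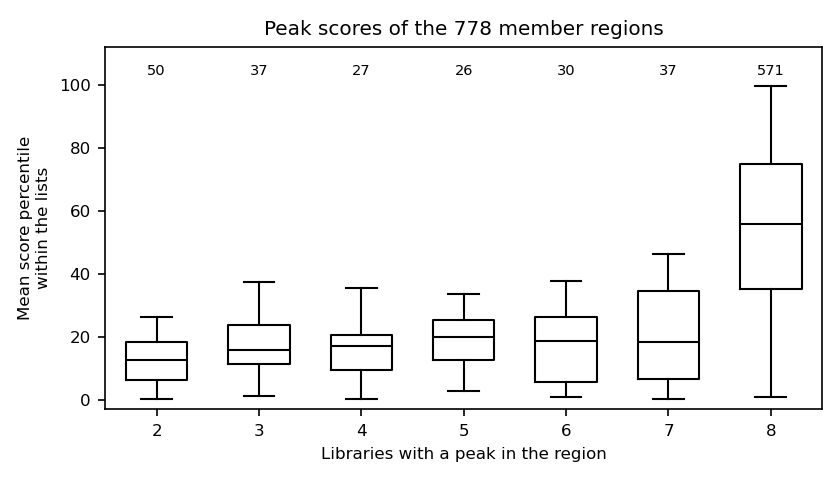
Mean score percentile of each region within the lists that call it, by the number of libraries with a peak. Boxes give the quartiles, lines inside them the median and whiskers the full range, with the number of regions above each box. The 571 regions called in 8 libraries have a median of 55.8, and no other class has a median above 19.9.

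The 10 highest-ranked regions were called in 8 of 8 libraries. The top was in the body of Apol9b, an apolipoprotein L gene, at 77733223 to 77733858 with a mean score percentile of 99.7. Next came the ends of Ndufa6 (99.7), an accessory subunit of respiratory complex I, and Gtse1 (99.1), a microtubule-associated cell cycle protein, with a region 4.71 kb from Tef (99.2), a basic leucine zipper factor. Tomm22 (99.0), the import receptor of the outer mitochondrial membrane, and Grap2 (98.7), an adaptor of lymphocyte receptor signalling, followed at gene ends. The others were 38.0 kb from Rbx1 (98.0), the RING subunit of cullin ubiquitin ligases, at the end of the zinc finger gene Zfp7 (98.0), in the body of Dennd3 (97.7) and 8.92 kb from the tubulin polyglutamylase gene Ttll1 (97.5). Their limma adjusted p-values for MUT against WT were 0.585 or more.

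The widest region, 1968 bp at 83562695 to 83564662, covered the end of Tspo, a protein of the outer mitochondrial membrane. It measured 1724, 1843, 1798 and 1486 bp in MUT libraries, against 1471, 1826, 1746 and 1788 bp in WT libraries, so the genotypes overlapped, each with a single shorter library. A region of 1721 bp lay 46.5 kb from Rbx1, and one of 1610 bp lay 24982 bp from the end of Sla, a Src-like adaptor of antigen receptor signalling. The other wide regions were at the ends of Tnrc6b (microRNA silencing), Nup50 (nuclear pore), Sharpin (linear ubiquitin ligase), Ep300 (histone acetyltransferase), Myh9 (nonmuscle myosin) and Zfat (zinc finger factor), and in the body of Tmprss6, a membrane protease. Their widths ran from 1433 bp at Zfat to 1563 bp at Tnrc6b, and none passed the limma test, with adjusted p-values of 0.505 for Myh9 and 0.669 or more for the others.

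The edited gene itself kept its peak in both genotypes. Hsf1 (76477362 to 76501155) had a single linked region, at its lower end (76476991 to 76477947), which also lies over the neighbouring end of Bop1, a ribosome biogenesis gene. It measured 838, 956, 848 and 687 bp in MUT libraries and 732, 713, 841 and 840 bp in WT libraries. The highest and the lowest value both came from MUT libraries, and the genotypes overlapped. The difference of log2(bp + 200), with each library's covered length scaled to the median of the libraries, was 0.032 ± 0.069 (SE; limma, adjusted p = 0.883, n = 4 each). A peak length reads neither changed residue, so it is no check of the mutation. The strongest peak here had a score percentile of 99.2, 98.7, 98.5 and 99.5 in MUT lists and 99.2, 99.3, 98.5 and 99.1 in WT lists, among the highest of every list. WT library 5 split the region into a strong peak and a weak one at the 1.28 percentile.

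Within 0.1 Mb of Hsf1 lay 12 regions, 10 of them called in all libraries, and none passed the limma test. They include the ends of Dgat1, a triglyceride synthesis enzyme, Fbxl6 and Slc52a2, a riboflavin transporter. The Dgat1 region measured 972, 834, 994 and 841 bp in MUT libraries, against 1011, 852, 972 and 1037 bp in WT libraries, and the genotypes overlapped (limma, adjusted p = 0.617). A region at the end of Scx, a tendon transcription factor, was called in MUT libraries 28 and 29 alone, at 349 and 277 bp. Of the 12 regions, 1 was longer and 0 shorter in every MUT library on unscaled lengths, against 4.19% and 1.73% of all regions. The gene Scrt1 in this stretch had a linked length of 305, 296, 320 and 334 bp in MUT libraries. Its WT libraries had 218, 227, 257 and 0 bp (limma, adjusted p = 0.536). The median log2 difference was -0.023 for these 12 regions, -0.016 for the 97 regions at 0.1 to 1 Mb, 0.00024 for 92 at 1 to 2 Mb, -0.014 for 280 at 2 to 5 Mb and -0.0027 for 297 at 5 to 10 Mb. No test was made along distance. Over all members the median was -0.0088, against -0.019 for all regions.

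Library totals of the window did not separate the genotypes. MUT libraries had a peak in 679, 735, 693 and 673 of the regions, against 662, 692, 685 and 637 in WT libraries, means of 695 ± 28.0 and 669 ± 24.9 (SD, n = 4 each). These overlapped, and the difference of 26 gave a p of 0.257 by an exact two-sided permutation test (0.471 adjusted over 3 window totals), in a design whose smallest possible p is 0.0286. As a percent of each list, window peaks made up 1.58, 1.52, 1.53 and 1.57% in MUT and 1.54, 1.57, 1.59 and 1.55% in WT libraries (exact permutation p = 0.629). Of all covered bases in consensus regions, the window held 1.58, 1.58, 1.56 and 1.61% in MUT and 1.52, 1.57, 1.60 and 1.54% in WT libraries (exact permutation p = 0.314, 0.471 adjusted). MUT library 27 had the highest count, and its list was the longest of the 8.

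**Figure D3:**
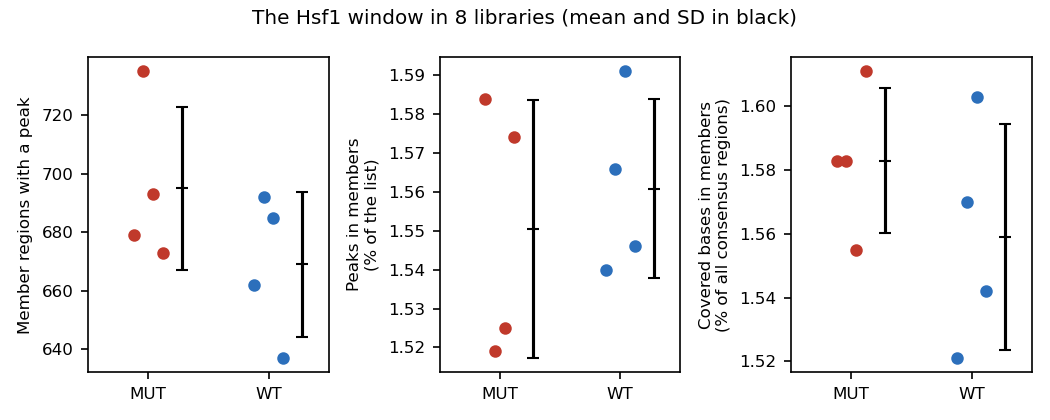
Window totals in the 4 MUT (red) and 4 WT (blue) libraries: member regions with a peak, peaks in members as a percent of the list, and covered bases in members as a percent of those in all consensus regions. Points are libraries and black bars the mean and SD. Axes do not start at 0, and the genotypes overlap in every panel.

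The list sizes were 44827, 49627, 46623 and 44333 peaks in MUT and 45004, 46102, 45066 and 42695 in WT libraries, and the files hold no read counts, so depth is unknown and a missing peak does not mean closed chromatin. Over the genome MUT libraries called 87.35% and WT libraries 84.7% of the consensus regions. The covered bases shared by a pair of libraries, as a fraction of those that either covered in the window, ranged from 0.805 to 0.84 for MUT pairs, from 0.82 to 0.846 for WT pairs and had a median of 0.809 across genotypes, against 0.801 across genotypes outside the window. Peaks at gene ends were present in all libraries for 8 of 8 NK markers (such as Ncr1 and Eomes), 4 of 6 T cell markers (Cd3e, Cd3d, Cd3g and Trac), 0 of 5 B cell, 2 of 4 myeloid and 1 of 3 erythroid markers. Cd8a, Csf1r, Lyz2 and Hba-a1 had none, Cd4 had 3 MUT and 1 WT, Cd79a 1 MUT and 4 WT, and Cd79b 3 MUT and 2 WT libraries. The other 3 B cell markers had a peak in at most 1 MUT library and in no WT library. The part of other cell types in the differences was not tested, and in bulk cells fewer cells of a type and less open chromatin per cell cannot be told apart.

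Regions called in every MUT and no WT library numbered 4 in the window (0.514%, against 0.583% of all regions), and regions called in every WT and no MUT library 0 (against 0.178% of all regions). By limma, 5 regions were longer in MUT at an adjusted p under 0.05 and 0 shorter, 0.643% of the members against 0.915% of all regions in either direction (0.681% longer and 0.234% shorter in MUT). Neither share was above that of all regions with the 8 libraries in use, while without WT replicate 5 limma gave 12 of 767 members against 1.11% of all regions. At an unadjusted p under 0.05 limma gave 76 members (9.77%, against 10.5% of all regions), 49 longer and 27 shorter in MUT. Fisher's exact test per region gave no call, since 4 against 0 libraries has an unadjusted p of 0.0286.

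The 5 regions that passed are the 4 MUT-only regions and 1 in Dennd3. The 4 entered the set of regions through MUT libraries alone, and WT libraries at 0 bp have no spread of their own. Their limma call therefore restates how they were chosen, and they are described by their lengths, without a p-value. The MUT-only region in Sun2, a nuclear membrane protein that ties the nucleus to the cytoskeleton, lies at 79729064 to 79729389, 5.16 kb inside the gene and 3.23 Mb from Hsf1. It measured 314, 273, 210 and 278 bp in MUT libraries 26, 27, 28 and 29, against 0 bp in all WT libraries, where no peak was called. Its mean score percentile was 35.5, the highest of the 4.

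The region near Csf2rb, which encodes the common beta chain of the receptors for interleukin-3, interleukin-5 and GM-CSF, lies between genes at 78320859 to 78321161, 4.79 kb from the gene's lower end. It measured 288, 275, 209 and 251 bp in MUT libraries and 0 bp in the WT libraries. It stands alone, with 47.7 kb to the nearest other member. The Tbc1d22a gene, which carries a domain that acts on Rab GTPases, had its region in the gene body at 86250364 to 86250657, 36.1 kb from the nearer end. It measured 221, 283, 212 and 235 bp in MUT and 0 bp in WT libraries. The Csf2rb and Tbc1d22a regions had score percentiles of 25.75 and 23.3.

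The MUT-only region nearest to Ly6e, a GPI-anchored surface protein, was 30.6 kb from it at 74924255 to 74924518. It measured 200, 247, 254 and 200 bp in MUT libraries, against 0 bp in WT libraries. Only 116 bp away, the region at 74923522 to 74924138 measured 438, 220, 205 and 0 bp in MUT and 293, 278, 455 and 462 bp in WT libraries. The neighbour was longest in WT libraries 6 and 7 and MUT library 26 and was not called in MUT library 29. The MUT-only region's score percentile was 19.35, the lowest of the 4.

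Dennd3 encodes an exchange factor for the GTPase Rab12. A region in its body at 73522949 to 73523564 measured 579, 616, 557 and 513 bp in MUT libraries, against 230, 419, 317 and 245 bp in WT libraries. All MUT libraries were above all WT libraries, and all 8 had a peak. The difference was 0.59 ± 0.105 (SE) on the log2 scale (limma, adjusted p = 0.0458), and it passed in 6 of 17 alternative analyses. These 6 include the 5 Mb flank, which leaves the fit unchanged and so repeats the main result. Leaving out WT replicate 5 gave an adjusted p of 0.00873, and leaving out any other library gave values from 0.0688 to 0.124. A second Dennd3 region at 73545433 to 73546032, one of the 10 highest ranked, measured 525, 518, 472 and 561 bp in MUT and 508, 582, 558 and 584 bp in WT libraries (limma, adjusted p = 0.585).

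**Figure D4:**
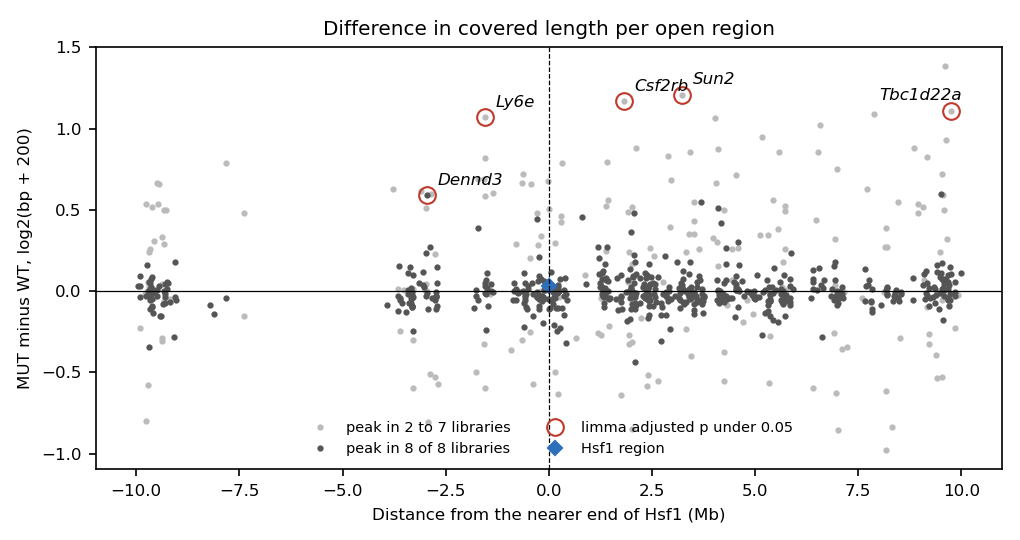
MUT minus WT difference in log2(bp + 200) of each of the 778 regions by distance in Mb from the nearer end of Hsf1 (dashed line), dark for regions called in 8 libraries and light for fewer. Red circles mark the 5 regions past limma's adjusted p of 0.05, and the diamond marks Hsf1 at 0.032. Among regions called in 8 libraries, Dennd3 lies at 0.59, Mgat3 at 0.55 and Lynx1 at 0.39.

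Outside these 5 regions, the covered lengths of MUT and WT libraries did not overlap for a further set of members that missed the threshold. In all, 61 members were apart in this way, 7.84% against 5.92% of all regions. Of these, 48 (6.17%, against 4.19% of all regions) were longer in every MUT library and 13 (1.67%, against 1.73%) were shorter. That split belongs to unscaled lengths: once each library was scaled to the same total, 22 were longer (2.83%, against 2.54%) and 27 shorter (3.47%, against 3.73%), with 18 and 12 shared between the 2 counts. Within Gpt, an alanine aminotransferase, a region 0.197 Mb from Hsf1 had its midpoint 1.29 kb from the gene's nearer end. It measured 431, 562, 520 and 432 bp in MUT and 606, 583, 595 and 580 bp in WT libraries. The MUT libraries were all lower (log2 difference -0.24; limma, adjusted p = 0.0564, or 0.0357 without MUT replicate 27 and 0.0771 to 0.159 without any other library), and the region passed in 2 of 16 alternative analyses. In Lynx1, an Ly6-family modulator of nicotinic receptors, a region measured 386, 442, 390 and 283 bp in MUT, against 228, 255, 223 and 210 bp in WT libraries. The MUT libraries were all higher (0.39; limma, adjusted p = 0.0664, or 0.0131 without MUT replicate 29 and 0.0869 to 0.165 without any other library), and the region passed in 1 of 16 alternatives.

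**Figure D5:**
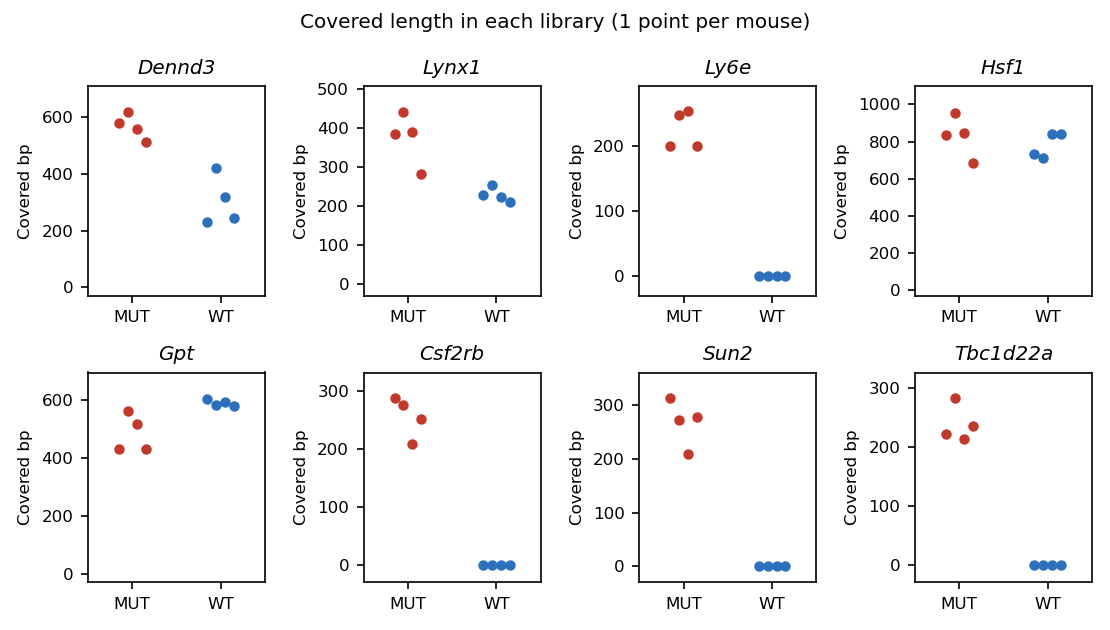
Covered length in bp in each of the 4 MUT (red) and 4 WT (blue) libraries for the 5 regions past the limma threshold, Hsf1, Lynx1 and Gpt, in order along the chromosome. The 4 regions called in MUT only are at 0 bp in every WT library, Gpt is lower and Lynx1 and Dennd3 higher in each MUT library, and the genotypes overlap at Hsf1.

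Regions present in all MUT and a single WT library were seen in Cyth4 (a guanine exchange factor of leukocytes), L3mbtl2 (a chromatin-binding protein) and Gramd4. In Cyth4 the MUT libraries had 245, 270, 245 and 218 bp, against 0, 207, 0 and 0 bp in WT libraries. In L3mbtl2 they had 249, 316, 258 and 252 bp, against 0, 0, 209 and 0 bp, and in Gramd4 241, 293, 210 and 295 bp, against 0, 0, 202 and 0 bp in WT. Their limma adjusted p-values were 0.265, 0.231 and 0.249. Without WT replicate 5 the Cyth4 region, and without WT replicate 6 the other 2, would be called in MUT alone. The reverse case was Prr5, a subunit of mTOR complex 2, at 0, 0, 200 and 0 bp in MUT libraries, against 260, 299, 216 and 281 bp in WT libraries (limma, adjusted p = 0.191). Without MUT replicate 28 it would be called in WT alone.

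The naming rule, up to 12 regions in each direction by unadjusted p, also took the following. Higher or lower in all MUT libraries refers to unscaled lengths. The log2 differences come from scaled lengths, on which the genotypes can overlap. Higher in all MUT libraries were regions of Fam227a (log2 difference 0.18), Mgat3 (0.55), a glycosyltransferase, and 64.5 kb from Wnt7b (0.12), a secreted signalling ligand, with limma adjusted p-values of 0.224, 0.292 and 0.230. Lower in all MUT libraries were regions of Tg (-0.80), thyroglobulin, Ago2 (-0.25), the microRNA-guided nuclease, Csnk1e (-0.23), a casein kinase, and Lrrc24 (-0.64). Lower too were regions of Gramd4 (-0.18), Sh3bp1 (-0.17), Tob2 (-0.15), Lgals1 (-0.15), which encodes galectin-1, Zfp251 (-0.14), and a second one near Ly6e (-0.24). The Ly6e value had an adjusted p of 0.136 by limma, and the others 0.263 or more. In MUT libraries the Tg region measured 0, 200, 202 and 0 bp and the Lrrc24 region 0, 200, 205 and 0 bp. Their large differences thus rest on MUT libraries 26 and 29 without a peak. The Lrrc24 region lay 86 bp from another member, and its difference was -0.254 with a merge gap of 100 bp. The Mgat3 region measured 715, 359, 565 and 396 bp in MUT and 311, 219, 265 and 275 bp in WT libraries. Its difference was 0.266 without MUT replicate 26. Csnk1e had the opposite sign when the upper 50% of each list by score was used (1.25; adjusted p = 0.682).

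Over genes, the bases of all peaks nearest to a gene, up to 50 kb, were summed. Of 235 window genes tested, 1 passed limma in the MUT-higher direction and 0 in the other. Over all 14257 genes 0.673% were called, 0.442% higher and 0.231% lower in MUT. Of the window genes 24 had an unadjusted p under 0.05, against 11.2% of all genes. The unscaled linked length of 5.96% of window genes did not overlap between genotypes, against 5.75% of all genes. Of these window genes, 13 were higher and 1 lower in MUT (4.23% and 1.52% of all genes). The split was not counted on scaled lengths, which changed it for regions. The median log2 difference was 0.0025, against -0.019 for all genes. The gene that passed was Csf2rb, at 288, 275, 209 and 251 bp in MUT and 0 bp in WT libraries, because its MUT-only region is its sole linked one, so its call restates that region and is given without a p-value. Csf2rb2, its neighbour and paralog, had no peak at either end. Of all 312 protein-coding genes of the window, 187 had a gene-end peak in 8 libraries, 19 in 1 to 7 and 106 in 0. The gene lists below were not tested against these counts.

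Among 23 leukocyte receptor, signalling and cytoskeleton genes, 22 were tested, 1 (Csf2rb) passed, the median log2 difference was 0.049, and 19 had a gene-end peak in 8 libraries. Il2rb had 6505, 6643, 6779 and 6365 bp in MUT libraries, against 6372, 6759, 6278 and 6226 bp in WT libraries, from 11 linked regions, and the genotypes overlapped (log2 difference -0.0025; limma, adjusted p = 0.991). One of its gene-body regions (78503553 to 78503815) had a peak in no MUT library and in WT libraries 4, 5 and 7 at 233, 258 and 219 bp. Rac2, a small GTPase of blood cells, had 3672 ± 311 bp in MUT and 3318 ± 371 bp in WT libraries (SD, n = 4 each; limma, adjusted p = 0.725). Ndrg1, a stress-responsive gene, had 1416, 1457, 1577 and 1460 bp in MUT libraries, against 1166, 1177, 1223 and 1180 bp in WT libraries, all MUT values above all WT values. It did not pass (limma, adjusted p = 0.134), but did without scaling (0.0318), and its difference was -0.013 with the upper 50% of peaks. Nfam1, a receptor with a signalling motif, had 784 ± 152 bp in MUT and 436 ± 238 bp in WT libraries (limma, adjusted p = 0.391), and Grap2 had 6071 ± 485 and 5436 ± 168 bp (limma, adjusted p = 0.307).

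The Ly6 cluster of small GPI-anchored proteins mostly had no peak at gene ends. Of the 18 genes listed for it, 8 were tested, none passed, the median log2 difference was 0.14, and 16 had a gene-end peak in 0 libraries. Over the window, 106 of 312 genes had a gene-end peak in 0 libraries. Ly6c2, which encodes an antigen of monocytes and lymphocyte subsets, had 1680, 1939, 1680 and 1747 bp in MUT libraries, against 1727, 1684, 1465 and 1662 bp in WT libraries, from 3 regions called in all libraries and not at its ends. The genotypes overlapped (limma, adjusted p = 0.764). Ly6e had 4988 ± 247 bp in MUT and 4454 ± 239 bp in WT libraries (limma, adjusted p = 0.475).

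Of 18 transcription and chromatin regulators, 16 were tested and none passed, with a median log2 difference of -0.0045 and 15 with a gene-end peak in 8 libraries. Atf4, which drives the integrated stress response, had 1320, 1291, 1329 and 1311 bp in MUT libraries, against 1313, 1305, 1287 and 1316 bp in WT libraries, the most even of the genes described here, and overlapping (limma, adjusted p = 0.887). Maff, a small Maf factor, had 2384 ± 130 bp in MUT and 2467 ± 81.6 bp in WT (limma, adjusted p = 0.428). Of 14 stress and housekeeping genes, 11 were tested, none passed, the median was -0.0039 and 13 had a gene-end peak in 8 libraries. Txn2, mitochondrial thioredoxin, had 2374 ± 285 bp in MUT and 1895 ± 288 bp in WT (limma, adjusted p = 0.287). The region at the ends of Sharpin and Maf1, a repressor of RNA polymerase III, was called in 8 of 8 libraries, as a single peak linked to Sharpin in MUT libraries 28 and 29 and as peaks divided between the genes in the other 6. Maf1 therefore counted 959, 954, 0 and 0 bp in MUT libraries, against 945, 950, 943 and 950 bp in WT libraries (limma, adjusted p = 0.481). Of 16 neural and developmental genes, 12 were tested, none passed, the median was 0.054 and 11 had a gene-end peak in 0 libraries. Arc, the neuronal immediate early gene, was among the 5 with one in 8 libraries.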

How the data were processed

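The 8 ATAC-seq libraries, 4 MUT and 4 WT, came from 1 mouse each. The deposited files are peak lists, 1 per library, with a position and a score per peak, the authors' own unnamed value. Positions are on mm10, also called GRCm38, per the submitters' processing notes. These notes name Bowtie2 2.3.4.1 and DiffBind 3.0.12 beside DESeq2 and Trimmomatic, without saying what each did. Which caller and threshold made the peaks, and whether reads were shifted, is not given in the sources used here. Intervals from counting error were not made, since the lists give no counts.

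Bases covered by peaks were summed per region and library. Lengths printed in bp are unscaled, so their order can differ from a log2 difference. Scaled lengths were tested with limma 3.58.1 (trend, R 4.3.3) on log2(bp + 200), over all 50044 regions or 14257 genes, with Benjamini-Hochberg adjustment. Window totals were tested by an exact two-sided permutation test (scipy 1.17.1). Genes came from a RefSeq table (GRCm38.p6) that gives ends without strand. Each peak was linked to the protein-coding gene with the nearest end. The strand of promoter sequences was checked on 12 overlapping pairs on opposite strands, all of which read as reverse complements.

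Regions are named by a rule: those linked to Hsf1, group-only and limma-passing regions, up to 12 per direction whose libraries do not overlap by unadjusted p, the 10 highest ranked and the 10 widest. Regions near Scx, Dgat1, Fbxl6 and Slc52a2, the gene Scrt1, the second region beside the Ly6e one and single regions of Il2rb were named after their values were seen. Members, lists and tests were chosen with earlier results of these data known. The code was tested on simulated data. Alternatives were other list lengths, score limits, region and merging rules, pseudocounts of 50 and 1000 bp, no scaling, a 5 Mb flank, a 10 kb link and each library left out. One further alternative, scaling lengths before the overlap of genotypes was read, was added after seeing the data. The 5 Mb flank changes the members and not the limma fit, so for a single region it repeats the main result.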

Additional observations from a re-analysis of the deposited data

Results flagged for a closer look

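In 92 groups of 4 libraries, made of the window totals and the named regions in each genotype, 15 had a library set far from the other 3. No chance rate is given, because most regions were named for their values. Regions at 0 bp in 3 libraries of a genotype meet the rule by construction. Covered length was low in MUT replicate 26 at Zfat (1004 bp), in MUT replicate 29 at Myh9 (1271 bp) and Tob2 (229 bp), in WT replicate 4 at Sharpin (1401 bp), and at Tomm22 in MUT replicate 28 (433 bp) and WT replicate 6 (456 bp). It was high in MUT replicate 26 at Zfp251 (235 bp) and Tef (541 bp), in MUT replicate 27 at Zfp7 (636 bp) and L3mbtl2 (316 bp) and in MUT replicate 29 at Grap2 (600 bp). The remaining 4 were regions called in 1 library of a genotype: Cyth4 in WT replicate 5 (207 bp), L3mbtl2 in WT replicate 6 (209 bp), Gramd4 in WT replicate 6 (202 bp) and Prr5 in MUT replicate 28 (200 bp). No library stood apart in a window total.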

How the results depend on the processing

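Of 48 summary values under other settings, 38 kept their direction and their side of the threshold or stayed within 1.5 times. With single libraries left out, 37 of 56 did so, 18 moved further and 1 reversed. The share of peaks in the window, -0.01 percentage points in MUT minus WT, was 0.000586 with equal numbers of peaks per list and 0.00713 with regions in 1 or more lists, and ranged from -0.029 to 0.00054 when single libraries were left out. With the upper 50% of peaks by score the window had 2 regions called in MUT alone, 1 in WT alone, 3 regions past limma (2 higher and 1 lower in MUT) and 2 genes past limma. With regions in 4 or more lists 1 region passed, in Sun2. That region met the rule through its 4 MUT libraries alone, so its call again restates how it was chosen. Without scaling 2 genes passed. Scaled before comparison, 22 members were higher and 27 lower in every MUT library, against 48 and 13 unscaled. Leaving out single libraries gave 4 to 10 MUT-only regions (7 without MUT replicate 27 or 29, 10 without WT replicate 5, 8 without WT replicate 6), 0 to 2 WT-only regions and 0 to 1 genes past limma. Regions past limma ranged from 3 of 770 without MUT replicate 26 (0.912% of all regions) to 12 of 767 without WT replicate 5 (1.11%), with 10 of 767 without MUT replicate 29 (1.56%) and 9 of 768 without WT replicate 6 (1.55%). The Dennd3 region passed in 6 of 17 alternatives, among them the 5 Mb flank, which repeats the main fit. Among single regions and genes, signs turned for Hsf1 without WT replicate 5 (-0.0098, within a range of -0.0098 to 0.0754 over the libraries left out) and with the upper 50% of peaks for Csnk1e (1.25), Ndrg1 (-0.013) and the gene Sun2 (-0.15). The causes were not tested. No paired analysis was possible because the MUT and WT mice share no replicate number. With 3 against 4 libraries the exact test cannot go below 0.0571. The lists hold no counts, so the depth behind a missing peak is unknown.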

Other observations

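The promoter entries of the window whose 250 bases hold the cyclic AMP element and a peak in 8 libraries include a Maff start, which also carries a GC box. This is a value without a test.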
